A study of Zea mays with 20 samples.

Results

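The 109 genes described here were ordered by Kn1-N dose in young maize leaves, higher with each added allele. They were chosen by their leaf levels in CPM (a gene's count scaled by the library's total count). In each gene, both wild-type leaf libraries lay below both heterozygous libraries, and both of those lay below both homozygous libraries. The homozygous mean was at least 2 CPM, and the homozygous mean plus 0.5 CPM was at least 1.6 times the wild-type mean plus 0.5 CPM. The rule left out kn1 (GRMZM2G017087) and kept 109 of the 39656 genes in the table. Of the 18880 genes at 2 CPM or more in homozygous leaf, 110 met the rule with kn1 included, which is 0.583%. Because every leaf library was used to choose them, their leaf values are given as a description with no test.

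KNOTTED1 (kn1) encodes a class I KNOX homeodomain transcription factor that is made in shoot meristems and is normally switched off where a leaf starts to form. Kn1-N is a dominant gain-of-function allele: dominant Knotted1 alleles switch the gene on in developing leaf blades, which then form knots along the veins. The kn1-e1 allele was profiled as the loss-of-function counterpart. The genes below therefore come from leaves where kn1 was added, and their levels were then read in tassels, ears and shoot apices where kn1 was reduced.

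All plants were in inbred B73. The leaf groups were Kn1-N/Kn1-N homozygotes, Kn1-N/+ heterozygotes and +/+ wild type, with 2 libraries each. Leaf tissue came from greenhouse seedlings 10 days after germination, cut from 2 to 3 mm above the meristem upwards as a roll of leaf bases measuring 7 to 8 mm by 1 to 2 mm. The loss-of-function groups were kn1-e1/kn1-e1 homozygotes, each set against siblings of its own tissue: field-grown tassel primordia in pools of 10 (3 kn1-e1 and 3 sibling libraries), field-grown ear primordia in pools of 6 to 8 (2 and 2), and shoot apical meristem samples (SAM, apices cut at the base of the fourth youngest leaf, so some leaf tissue was included) in pools of 15 from greenhouse plants 19 days after germination (2 and 2). The siblings are labelled kn1-e1/+ in one field and wild type in another, and are called siblings here. The kn1-e1 tassels measured 2 to 3 mm against 4 to 5.5 mm in siblings, and the kn1-e1 ears 4 to 5 mm against 7 to 8 mm, so genotype and organ size cannot be told apart in those tissues.

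The 20 libraries held 16068246 to 20722952 counted reads, so 1 CPM was 16.1 to 20.7 reads. In leaf, kn1 itself stood at 0.0513 and 0 CPM in wild type, 5.02 and 6.10 CPM in heterozygotes and 9.79 and 10.8 CPM in homozygotes. It was lower in the kn1-e1 libraries of each tissue, with log2 fold changes against siblings of -2.12 in tassel, -1.98 in ear and -1.66 in SAM (edgeR adjusted p of 8.69e-07, 8.22e-10 and 3.06e-05). The leaf samples carried 8 meristem identity genes (without kn1, lg3 and lg4) at a summed 24.6 to 28.7 CPM in wild type, 26.3 to 26.4 CPM in heterozygotes and 23.3 to 24.2 CPM in homozygotes, against 591 to 737 CPM in the tassel and ear libraries and 130.4 to 152 CPM in the SAM libraries. The ramosa gene ra1 and the branched silkless gene bd1 of that list were at 0 counts in all 6 leaf libraries. Both were also at 0 counts in the SAM libraries of both genotypes. Another ramosa gene of the list, ra3, had 4 to 15 reads per leaf library. The summed level of 19 photosynthesis genes was 938 to 1174 CPM over the leaf libraries and did not follow the allele number.

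Most differences were small. On the ratio of means with 0.5 CPM added, homozygous over wild type, the lowest value was 1.61, the median 2.02 and the highest 15.0. There were 53 genes below 2-fold, 56 at 2-fold or more and 16 at 3-fold or more. Homozygous means ran from 2.06 to 1974 CPM with a median of 12.5 CPM. At the fold limit, BX4 (GRMZM2G172491, 1.607) and GRMZM2G080725 (1.613) lay just inside, and GRMZM2G001200 (1.598) and GRMZM2G117357 (1.595) just outside. At the level limit, GLK44 (GRMZM2G124540) was inside with 2.06 CPM and GRMZM2G322819 outside with 1.97 CPM.

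Heterozygotes usually reached less than the midpoint between wild type and homozygote. The share of the homozygous rise present in heterozygotes, (heterozygous mean minus wild-type mean) over (homozygous mean minus wild-type mean), was 7.17% at the lowest, 37.6% at the median and 81.0% at the highest. It was under 50% in 84 of the 109 genes. Among the 195 genes past the level and fold limits whatever their order in heterozygotes, the median was 31.0%. Both sets were chosen by a high homozygous over wild-type ratio in these same libraries. That choice alone can enlarge the homozygous rise and lower the share, so the shares are a description. The median over the 109 genes depended on the heterozygous library, with 29.1% from library 1 alone and 41.9% from library 2 alone. For kn1 itself the share was 53.8%.

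**Figure D1:**
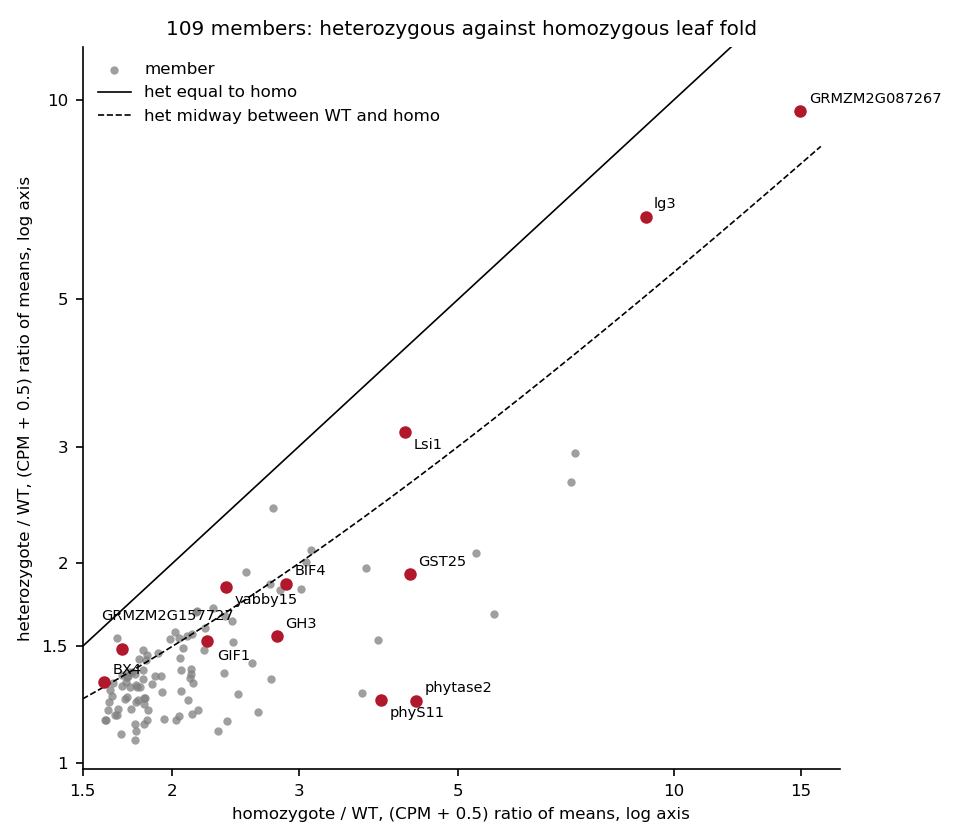
Each dot is 1 of the 109 genes: the horizontal axis gives homozygous over wild-type leaf and the vertical axis heterozygous over wild-type leaf, both as ratios of mean CPM plus 0.5 on log axes. Dots under the dashed line (84 genes) had less than 50% of the homozygous rise in heterozygotes. Genes lg3, Lsi1 and GRMZM2G087267 lie above it, and phytase2 and phyS11 near the bottom.

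The libraries of a group differed from each other by a median of 1.08 times in homozygotes, 1.13 times in heterozygotes and 1.14 times in wild type over these genes, on CPM plus 0.5. Wild-type library 1 was the lower of the pair in 78 of 109 genes, although over all 18880 genes at the level limit it was the higher in 52.3%. Without wild-type library 2 the rule would have kept 206 genes instead of 109. Leaving out any leaf library loosens the ordering, which by itself can only add genes. The counts with 1 library left out ran from 124 to 206.

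Several named members encode transcription factors or their partners. The gene lg3 (GRMZM2G087741), liguleless3, is a class I KNOX gene related to kn1. Its leaf level was 0.205 and 0.0528 CPM in wild type (4 reads and 1 read), 3.90 and 3.48 CPM in heterozygotes and 4.90 and 5.58 CPM in homozygotes. It was thus near 0 in wild type, and its heterozygotes had 69.7% of the homozygous rise. It was the only member among the 10 KNOX and BELL genes matched by name, of which 5 reached 2 CPM in homozygous leaf. Its close relative lg4 (GRMZM2G094241) had 0.0513 and 0.0528 CPM in wild type, 1.90 and 2.27 CPM in heterozygotes and 2.42 and 2.09 CPM in homozygotes, and was no member because the heterozygous and homozygous values overlapped.

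Growth-regulating factors (GRF) are plant transcription factors that promote cell division in growing organs, and GRF-INTERACTING FACTOR (GIF) proteins are their coactivators. Of the 18 GRF and GIF genes in the table, 17 were at 2 CPM or more in homozygous leaf and 4 were members. The coactivator gene GIF1 (GRMZM2G180246) had 31.3 and 31.7 CPM in wild type, 44.5 and 52.1 CPM in heterozygotes and 70.2 and 71.7 CPM in homozygotes, 2.24-fold higher in homozygotes than in wild type. GRF11 (GRMZM2G067743) had 3.90 and 3.59, then 5.21 and 5.27, then 7.44 and 7.62 CPM in the same order. GRF12 (GRMZM2G119359) and GRF14 (GRMZM2G098594) stood 1.799-fold and 1.67-fold higher in homozygotes than in wild type. Heterozygotes held 54.5% of the rise of GRF12, near the midpoint, and 27.4% of that of GRF14. The reference gene order was counted over placed genes only, those matched to a single reference gene and at 2 CPM or more in homozygous leaf. Within 50 placed genes on each side of kn1, GIF1 was the only member, 13 placed genes away. Genes without a place may lie between them. Of the 82 members with a place in that order, 13.4% were on the kn1 chromosome, against 15.9% of all placed genes.

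The gene yabby15 (GRMZM2G529859) belongs to the YABBY family, transcription factors of lateral organs. Its level was 21.6 and 21.7 CPM in wild type, 39.5 and 41.1 CPM in heterozygotes and 52.6 and 51.8 CPM in homozygotes, with 61.2% of the rise in heterozygotes. It was 1 of 8 YABBY genes in the table, 7 of them at the level limit. Other members annotated as transcription factors were HB127 (GRMZM2G119999, a homeobox gene), MYB59 (GRMZM2G130149) and GLK44 (a G2-like gene). MYB59 had 9.33 and 9.46 CPM in wild type, 16.02 and 16.6 CPM in heterozygotes and 21.5 and 20.4 CPM in homozygotes. HB127 followed another course, with 0.667 and 0.793 CPM in wild type, 0.877 and 0.871 CPM in heterozygotes and 2.599 and 2.09 CPM in homozygotes, so that only 8.92% of its rise was present with 1 allele.

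Auxin genes gave 2 members out of 58 in the table, 37 of them at the level limit. BIF4 (GRMZM5G864847), BARREN INFLORESCENCE4, encodes an Aux/IAA protein, a repressor that auxin removes. It had 0.872 and 1.22 CPM in wild type, 2.14 and 2.61 CPM in heterozygotes and 3.87 and 4.03 CPM in homozygotes. The gene GH3 (GRMZM2G378106) carries the name of a family of enzymes that join auxin and other hormones to amino acids. It stood at 0.872 and 0.7399 CPM in wild type, 1.36 and 1.69 CPM in heterozygotes and 3.20 and 3.11 CPM in homozygotes.

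**Figure D2:**
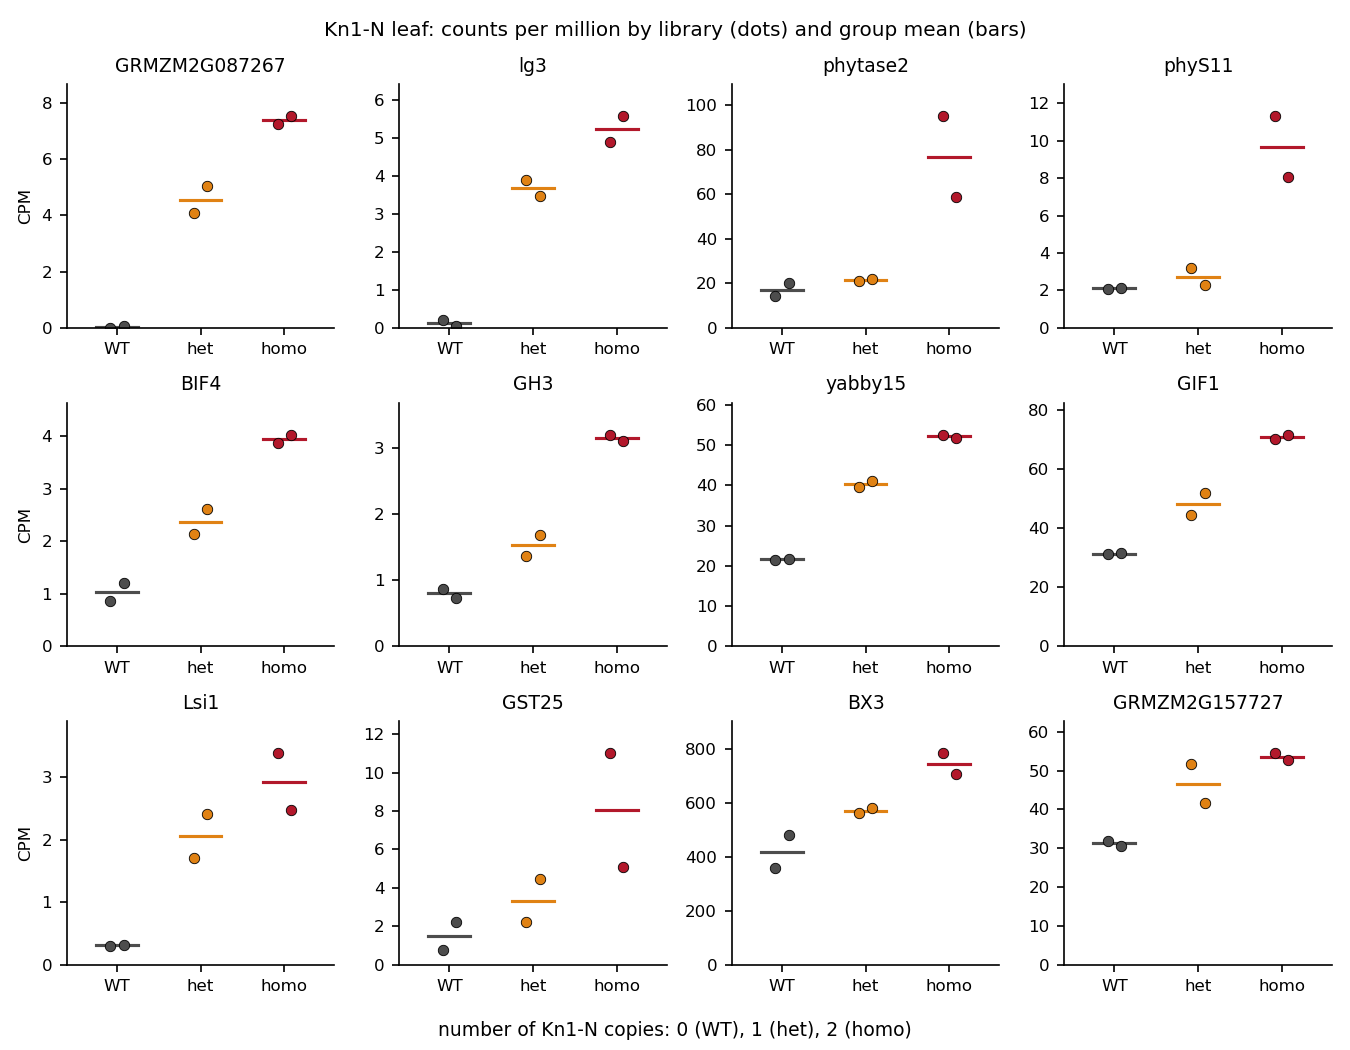
CPM in each leaf library (dots) and group means (bars) for 12 of the 109 genes, with 0, 1 and 2 Kn1-N alleles from left to right on a linear axis that starts at 0. The steps of lg3, yabby15 and GIF1 were spread over both alleles, and those of phytase2 and phyS11 came almost wholly in homozygotes.

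Another annotated group belonged to the synthesis of benzoxazinoids, indole-derived compounds that grasses make in young tissue against insects and fungi. In maize, bx1 makes indole from a tryptophan precursor, the cytochrome P450 enzymes of bx2 to bx5 oxidise it stepwise, and glucosyltransferases of bx8 and bx9 add a sugar. The 4 P450 genes were all members: bx2 (GRMZM2G085661), BX3 (GRMZM2G167549), BX4 and BX5 (GRMZM2G063756). They were 4 of the 8 benzoxazinoid genes found by name, a list put together after the members were known. BX3 had 360 and 479 CPM in wild type, 561 and 581 CPM in heterozygotes and 783 and 705 CPM in homozygotes. The gene bx2 had 139 and 185, then 251 and 193, then 283 and 285 CPM. BX5 had 906 and 1197 CPM in wild type, 1389 and 1398 CPM in heterozygotes and 1887 and 1744 CPM in homozygotes.

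Wild-type library 1 was the lower one in all 4. The first gene of the pathway, bx1 (GRMZM2G085381), was also higher in homozygotes, at 255 and 212 CPM against 111 and 138 CPM in wild type, but its heterozygotes (251 and 186 CPM) overlapped the homozygotes. The sugar-adding enzymes bx8 (GRMZM2G085054) and bx9 (GRMZM2G161335) had ratios of 1.41 and 1.23 and were no members. BX14 (GRMZM2G127418), also on the list, had a ratio of 1.26 and was no member. It had 20.7 and 31.3 CPM in wild type, 23.9 and 26.2 CPM in heterozygotes and 43.1 and 22.7 CPM in homozygotes. BX3, BX4, BX5 and bx2 lie within 5 placed genes of each other in the reference gene order, and related P450 genes can share reads, so their values may not be independent of each other.

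Some members reached their level almost only with the second allele. Phytases are enzymes that release phosphate from phytate, the main phosphorus store of seeds, and both phytase genes of the table were members, again on a list made after the members were known. The gene phytase2 (GRMZM2G043336) had 14.3 and 20.1 CPM in wild type, 20.99 and 21.96 CPM in heterozygotes and 95.03 and 58.8 CPM in homozygotes. The gene phyS11 (GRMZM2G140101) had 2.10 and 2.11, then 3.21 and 2.27, then 11.3 and 8.06 CPM. Heterozygotes held 7.17% and 8.39% of the rise of these genes, and the homozygous libraries differed from each other far more than those of GIF1 or yabby15. An unnamed gene between them in the reference order, GRMZM2G020423, had 10.2% of its rise in heterozygotes and 6.83 and 3.88 CPM in homozygotes, against 1.18 and 1.00 CPM in wild type. Whether these genes share reads was not tested.

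Of 32 glutathione S-transferase genes, enzymes that attach glutathione to reactive compounds, 19 were at the level limit and 4 were members, on a list that was also made after the members were known: GST25 (GRMZM2G161905), gst5 (GRMZM2G308687), gst28 (GRMZM2G146475) and gst41 (GRMZM2G097989). GST25 had 0.769 and 2.22 CPM in wild type, 2.24 and 4.45 CPM in heterozygotes and 11.002 and 5.10 CPM in homozygotes, so libraries of 1 group stood far apart. The others were 1.68-fold to 1.77-fold higher in homozygotes than in wild type. Lsi1 (GRMZM2G028325), named after the silicon influx channel of rice roots, had 0.308 and 0.317 CPM in wild type, 1.70 and 2.42 CPM in heterozygotes and 3.39 and 2.48 CPM in homozygotes. Other named members were apt1 (GRMZM2G170101), mn1 (GRMZM2G119689, a cell wall invertase that cleaves sucrose), PP2C19 (GRMZM2G069713, a protein phosphatase) and mlo3 (GRMZM2G031331, of a family known from mildew susceptibility).

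The 83 members without a gene name included the largest ratio and the highest CPM. GRMZM2G087267 had 0 and 0.0528 CPM in wild type (1 read in all), 4.09 and 5.03 CPM in heterozygotes and 7.25 and 7.52 CPM in homozygotes (275 reads). Its ratio of reads per library size was 284, with an exact 95% interval of 50.6 to 11277 that covers counting error only. GRMZM2G455330 had no read in wild type, 0.584 and 1.06 CPM in heterozygotes and 3.99 and 2.18 CPM in homozygotes, at least 38.3-fold higher in homozygotes against a floor of 3 reads over the wild-type group. At the other end, GRMZM2G014844 had the highest homozygous CPM (not corrected for gene length), at 2363 and 1584 CPM, against 768 and 830 CPM in wild type.

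No member came from 21 gene lists, with 241 genes at the level limit summed over the lists, where 0.583% of all genes at that level met the rule. None of the genes matched by name for leaf polarity, SBP-box, TCP, MADS-box, LOB domain, WOX, gibberellin, cytokinin, brassinosteroid, ethylene, abscisic acid, jasmonate, cell cycle, histones, ribosomal proteins, photosynthesis, cell wall, lignin, wax, heat shock or peroxidases was a member. Only 47.3% of the gene IDs were in the reference table, so these lists hold a part of each family.

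In tassels, ears and apices most of the 109 genes stood above their wild-type leaf level. Every sibling library lay above both wild-type leaf libraries for 84 genes in tassel (77.1% of the members, against 47.4% of all 22353 genes with at least 1 CPM in some group), 78 genes in ear (71.6%, against 48.2%) and 80 genes in SAM (73.4%, against 47.5%). All 3 tissues were above for 66 genes (60.6%, against 34.1% of all genes) and all 3 below for 10 (9.17%, against 27.5%). Below wild-type leaf in every sibling library were 17 genes in tassel, 23 in ear and 23 in SAM (15.6%, 21.1% and 21.1%, against 37.7%, 39.3% and 37.4% of all genes). The rule used the leaf values, so these shares are a description. Above even the homozygous leaf libraries stood 64 genes in sibling tassel, 59 in ear and 61 in SAM (58.7%, 54.1% and 56.0%, against 48.5%, 49.2% and 48.3% of all genes), so these shares lay closer to the background. In bulk tissue, a larger share of cells with a transcript and more transcript per cell cannot be told apart.

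GIF1 was an example of the first kind, with 717, 709 and 684 CPM in sibling tassels, 461 and 525 CPM in sibling ears and 597 and 564 CPM in sibling apices, against 31.3 and 31.7 CPM in wild-type leaf. The gene lg3 stood at 156, 148 and 152 CPM in sibling tassels, 91.5 and 103 CPM in sibling ears and 59.9 and 51.0 CPM in sibling apices, so its homozygous leaf level of 4.90 and 5.58 CPM was a small part of that in any of these tissues. The genes GH3, BIF4, GRF11, GRF12, GRF14, yabby15, Lsi1, apt1, GLK44, gst28 and gst41 were also above wild-type leaf in all 3. On the other side, phytase2 had 3.88, 4.75 and 4.52 CPM in sibling tassels, 1.21 and 2.42 CPM in sibling ears and 0.106 and 0 CPM in sibling apices, all below wild-type leaf. The genes phyS11, bx2 and BX4 were likewise below wild-type leaf in all 3. There were 6 members under 1 CPM in all 14 tassel, ear and SAM libraries, among them phyS11 and GRMZM2G455330.

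**Figure D3:**
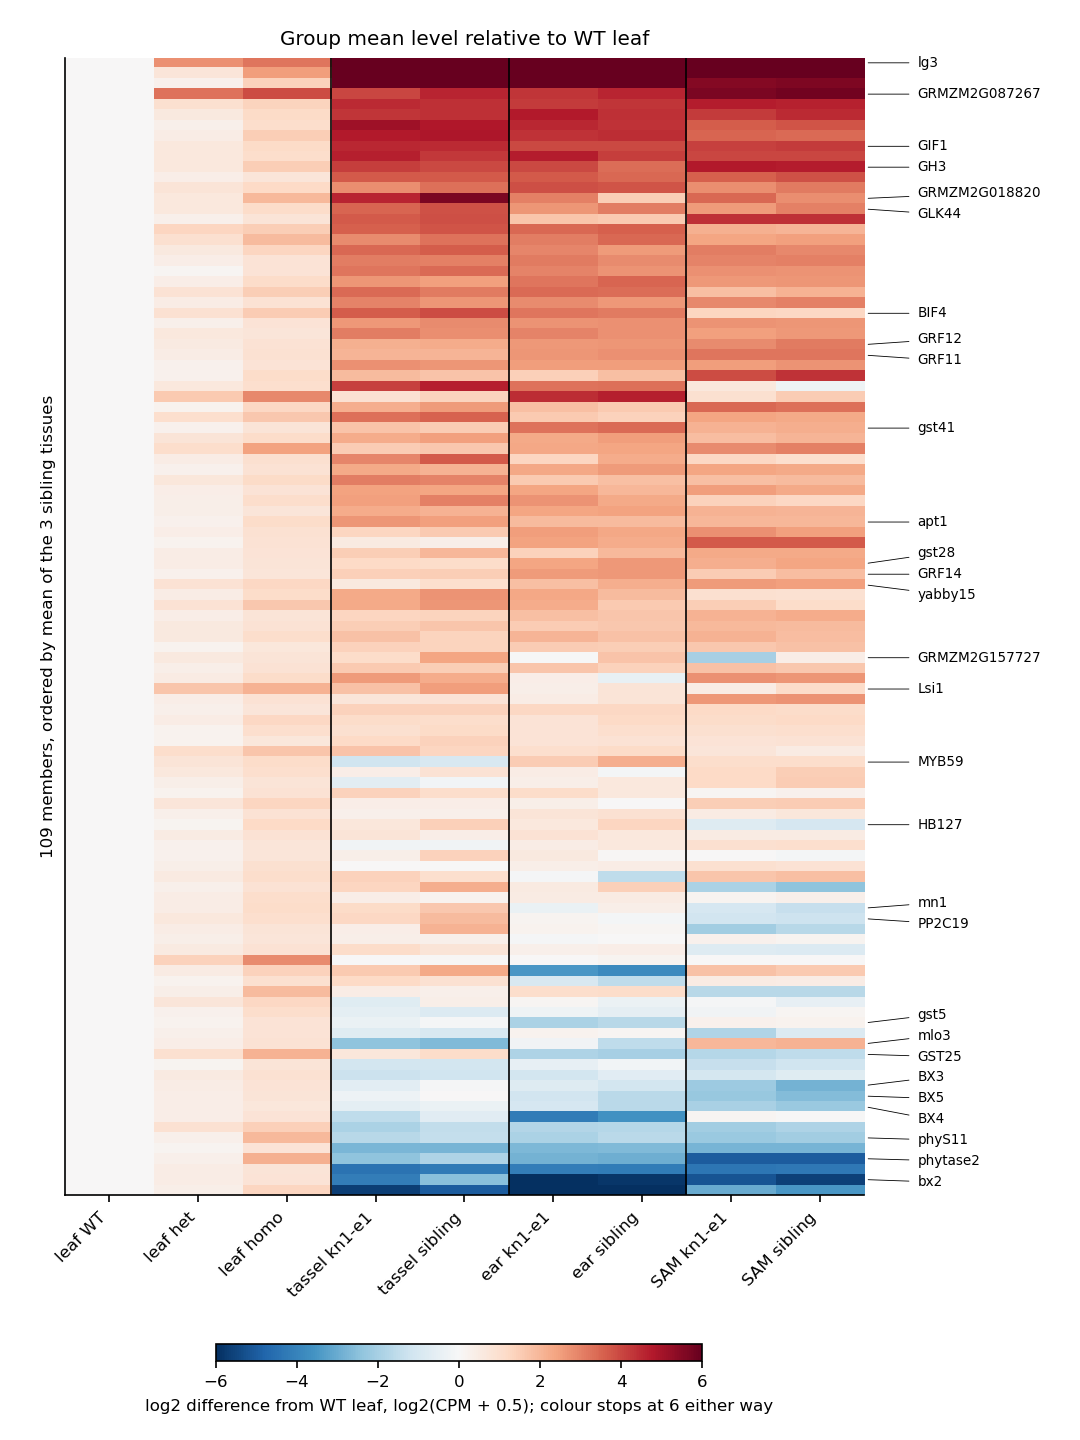
Each row is 1 of the 109 genes and each column a group; colour is the difference of log2(mean CPM + 0.5) from wild-type leaf, red for higher and blue for lower. Rows run from the highest to the lowest mean over sibling tassel, ear and SAM, with lg3, GIF1 and GH3 near the top and bx2, phytase2 and phyS11 near the bottom.

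Across all 20 libraries, the members whose log2(CPM + 0.5) followed kn1 most closely were GRMZM2G113332 (Pearson r of 0.946), GRMZM2G127308 (0.940), GRMZM2G043242 (0.928), lg3 (0.909) and GLK44 (0.901). BIF4 had 0.874, GIF1 had 0.838, and bx2 (-0.55), phytase2 (-0.42) and phyS11 (-0.50) had negative values. These correlations rest largely on the difference between leaves and the other tissues and are given as a description.

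The kn1-e1 libraries were not used to choose the genes and allow a test. In tassel, 38 of the 103 members that could be tested passed at a Benjamini-Hochberg adjusted p under 0.05 in edgeR, 36.9% against 7.91% of all genes tested. There were 31 lower and 7 higher in kn1-e1 (5.55% and 2.35% of all genes). The median log2 fold change of the tested members was -0.10, against 0.01 over all genes. Left without a test by their low counts were 6 members. The count of higher genes was 2 without sibling tassel library 3, and 4 without sibling library 1 or 2 or without kn1-e1 library 3. The p-values measure the spread between these libraries, which the study describes as biological replicates.

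The largest falls in kn1-e1 tassel included GRMZM2G053720 (log2 fold change of -1.77 ± 0.14, SE, adjusted p = 1.31e-05), bx2 (-1.67 ± 0.12, adjusted p = 9.02e-06) and GRMZM2G157727 (-1.31 ± 0.07, adjusted p = 1.08e-06) in edgeR's test. The gene bx2 had 9.56, 6.65 and 9.98 CPM in kn1-e1 tassels and 28.6, 29.98 and 24.5 CPM in sibling tassels, with no overlap. Smaller falls passed for BX3, BX4, BX5, yabby15, Lsi1 (-0.88), PP2C19 (-0.65), HB127 (-0.91), phytase2 (-0.67) and BIF4 (-0.28). Of these calls, that of phytase2 was lost with DESeq2, in a single fit of 14 libraries, and without kn1-e1 tassel library 3 or sibling tassel library 2 or 3 (adjusted p of 0.0152 to 0.126 over 11 alternatives). That of BIF4 was lost with DESeq2, in the single fit, and without sibling tassel library 1 or 2 (0.0183 to 0.106). HB127 was lost with DESeq2 and without kn1-e1 tassel library 1 or 3 or sibling tassel library 2 or 3 (0.00642 to 0.0845), and BX4 in the single fit and without kn1-e1 tassel library 3 or sibling tassel library 1 or 2 (0.00685 to 0.128). Genes higher in kn1-e1 tassel changed little, the clearest being GRMZM2G086474 (0.44 ± 0.04, edgeR adjusted p = 8.77e-05), with 87.4, 83.3 and 86.6 CPM in kn1-e1 tassels against 65.6, 61.3 and 60.6 CPM in sibling tassels. The gene apt1, named for aberrant pollen transmission, had a log2 fold change of 0.20, a call that was lost without sibling tassel library 2 or 3 (adjusted p of up to 0.0782 in edgeR).

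In ear, 37 of 102 tested members passed, 36.3% against 18.6% of all genes, with 19 higher and 18 lower in kn1-e1 (8.21% and 10.4% of all genes); 7 members could not be tested. The median log2 fold change was -0.05. Without sibling ear library 1 these counts were 11 and 11, without sibling ear library 2 they were 12 and 9, and without kn1-e1 ear library 2 there were 27 lower. DESeq2 called 15 higher and 8 lower, and scaling by library totals alone gave 24 higher and 13 lower. Among the genes higher in kn1-e1 ears were GRMZM2G431504 (1.62 ± 0.22, edgeR adjusted p = 0.000264), GRMZM2G018820 (1.57 ± 0.10, adjusted p = 4.77e-07), mlo3 (1.496 ± 0.23, adjusted p = 0.000549) and GH3 (0.58 ± 0.12, adjusted p = 0.00453). GH3 had 22.1 and 18.2 CPM in kn1-e1 ears, against 14.05 and 11.99 CPM in sibling ears.

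Lower in kn1-e1 ears were GRMZM2G014844 (-2.04 ± 0.44, edgeR adjusted p = 0.00549, at 0.434 and 0.206 CPM against 1.21 and 1.39 CPM), GRMZM2G157727, GRMZM2G022934, GRMZM2G127350, MYB59 (-0.74 ± 0.09, adjusted p = 0.000171), GLK44 (-0.48) and gst28 (-0.27). The calls of GRMZM2G014844, GLK44 and gst28 were lost with DESeq2, in the single fit of 14 libraries and without sibling ear library 2 (adjusted p of up to 0.117, 0.2202 and 0.435 over 9 alternatives in edgeR and DESeq2). GLK44 was also lost without sibling ear library 1 and gst28 with library totals alone, and GH3 without sibling ear library 2 (edgeR adjusted p = 0.0988). The summed photosynthesis genes stood at 49.5 to 49.9 CPM in kn1-e1 ears and 22.4 to 23.03 CPM in sibling ears, and their part in the ear results was not tested.

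In SAM, 2 of 99 tested members passed, 2.02% against 0.164% of all genes, and 10 could not be tested. BX3 was higher in kn1-e1 (0.67 ± 0.11, edgeR adjusted p = 0.0259) and GRMZM2G157727 lower (-2.48 ± 0.15, adjusted p = 6.21e-06), against 0.0434% of all genes higher and 0.12% lower. At an unadjusted p under 0.05 there were 19 members, 19.2% against 4.73% of all genes. The sibling SAM libraries differed from each other more than those of any other pair (chi-square of 12.3 per gene, against 1.83 to 5.5): without sibling SAM library 2 there were 7 higher and 9 lower members, without sibling SAM library 1 there were 3 higher, and without kn1-e1 SAM library 1 there was none higher. The call of BX3 was lost without kn1-e1 SAM library 1 or 2 (edgeR adjusted p of up to 0.19). The summed heat shock genes stood at 3247 to 3298 CPM in kn1-e1 SAM and 4368 to 4435 CPM in sibling SAM; their part was not tested.

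Among all members GRMZM2G157727 was the only one that passed in all 3 tissues with a lower level in kn1-e1. It has no name in the reference used. Its level was 76.5, 57.4 and 67.9 CPM in kn1-e1 tassels against 160, 168 and 165 CPM in sibling tassels, 30.5 and 31.6 CPM in kn1-e1 ears against 112 and 97.5 CPM in sibling ears, and 8.43 and 6.30 CPM in kn1-e1 SAM against 37.7 and 45.4 CPM in sibling SAM. The groups did not overlap in any tissue. In leaf it had 32.0 and 30.5 CPM in wild type, 51.6 and 41.7 CPM in heterozygotes and 54.5 and 52.6 CPM in homozygotes, 69.0% of the rise being present with 1 allele.

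The other gene that passed in all 3 tissues, BX3, changed direction. Lower in kn1-e1 tassels, it stood at 269, 250 and 283 CPM against 395, 411 and 381 CPM in siblings (-0.58 ± 0.05, edgeR adjusted p = 1.65e-05). In kn1-e1 ears it was higher, at 247 and 238 CPM against 186 and 209 CPM (0.24 ± 0.06, adjusted p = 0.0121), and in kn1-e1 SAM, at 89.9 and 95.2 CPM against 63.5 and 54.3 CPM. BX4 and BX5 were also lower in kn1-e1 tassel (-0.20 and -0.33, edgeR adjusted p = 0.0279 and 0.000233) and higher in ear (0.56 and 0.42, adjusted p = 0.000305 and 0.000331). The ear minus tassel difference of these effects was itself past the threshold for both genes, at 0.74 ± 0.11 for BX4 and 0.74 ± 0.09 for BX5 (edgeR adjusted p = 0.00111 and 0.000226). Over the 8 benzoxazinoid genes, 6 of 7 tested were lower in kn1-e1 tassel (5.55% of all genes) and none higher. In ear 3 of 6 passed as higher (8.21%) and none as lower, and 1 of 7 was higher in SAM (0.0434%). That list was made after the members were known and includes 4 of them, neighbouring genes that may share reads. Its counts are therefore a description. Unlike BX3, BX4 and BX5, the member bx2 leaned lower in kn1-e1 ear, at 22 to 54 reads per library (-0.88 ± 0.296, edgeR adjusted p = 0.0526). The ear value of bx2 passed as lower without a filter on low counts and with replicate number as a block. Outside the members, bx1 was lower in kn1-e1 tassel (-2.96 ± 0.26, adjusted p = 3.79e-05), at 0.905, 0.568 and 1.84 CPM against 7.01, 9.45 and 9.68 CPM.

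**Figure D4:**
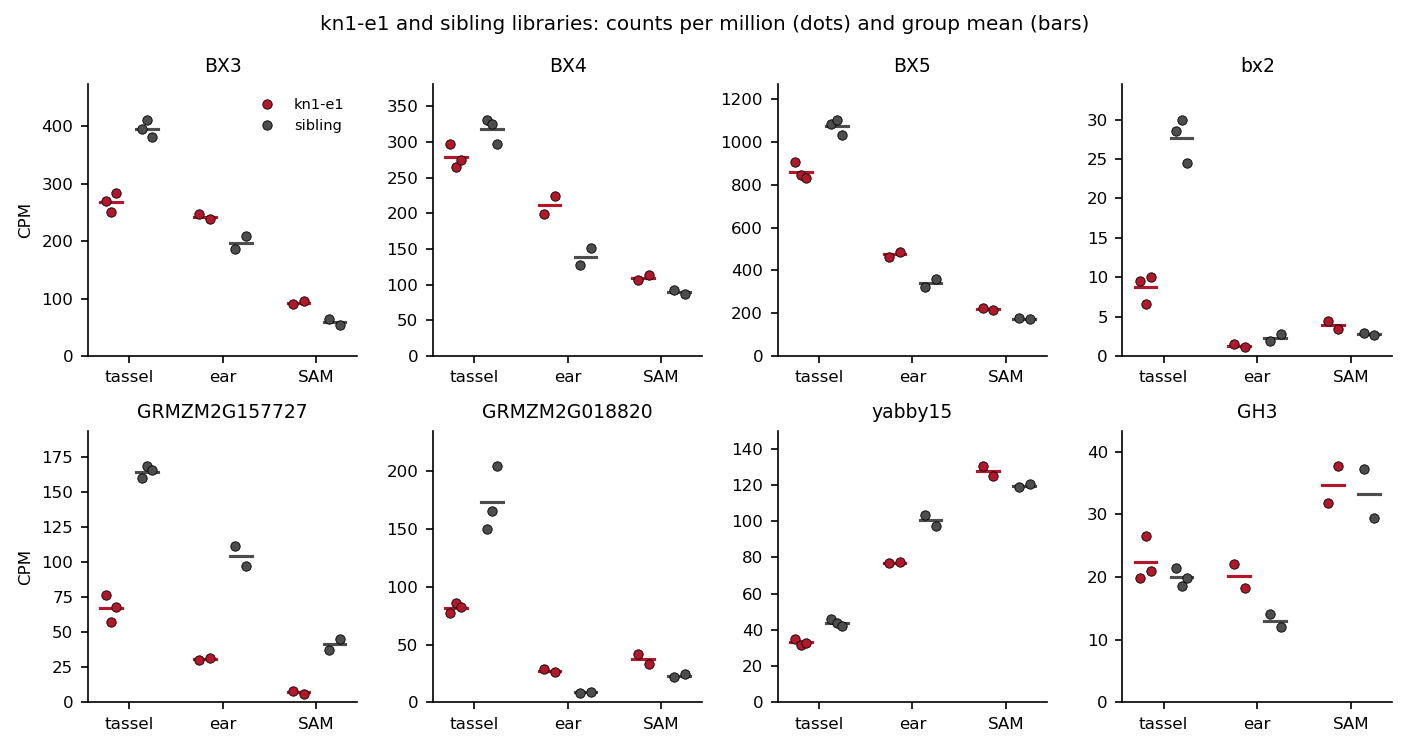
CPM in each kn1-e1 library (red dots, left of each pair) and sibling library (grey dots, right) of tassel, ear and SAM for 8 members, with group means as bars on a linear axis that starts at 0. BX3, BX4 and BX5 were lower than siblings in kn1-e1 tassel and higher in ear, and GRMZM2G157727 was lower in all 3 tissues.

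Direction changes were not peculiar to that pathway. Of the 17 members that passed in 2 or 3 tissues, 8 were lower in kn1-e1 in each, 2 were higher in each (GRMZM2G086474 and GRMZM2G132154), and 7 went in opposite directions, which is 41.2% against 33.1% of all genes that passed in 2 or 3 tissues. All 7 were lower in kn1-e1 tassel and higher in kn1-e1 ear: BX3, BX4, BX5, GRMZM2G018820, GRMZM2G163406, GRMZM2G050412 and GRMZM2G088689. The shares of all genes with that order, lower in each or higher in each were not counted. Over all genes, 5.55% were lower and 2.35% higher in kn1-e1 tassel, and 10.4% lower and 8.21% higher in ear. GRMZM2G018820 had 77.4, 86.2 and 82.4 CPM in kn1-e1 tassels against 150, 166 and 204 CPM in sibling tassels, and 28.6 and 26.6 CPM in kn1-e1 ears against 8.56 and 9.31 CPM in sibling ears. GRMZM2G163406 and GRMZM2G050412, adjacent among the placed genes of the reference order, had log2 fold changes of -0.42 and -0.58 in tassel and 0.39 and 0.37 in ear. Whether they share reads was not tested. Without sibling ear library 1 the ear calls of BX3, GRMZM2G163406, GRMZM2G050412 and GRMZM2G088689 were lost (edgeR adjusted p = 0.275, 0.0558, 0.0892 and 0.105). The last was also lost with DESeq2, without sibling ear library 2 and without kn1-e1 ear library 1, BX3 in the single fit, and both calls of GRMZM2G132154 with DESeq2 and without several single libraries. The difference between tissues was past the threshold for 20 of 104 tested members between ear and tassel (5.22% of all genes), 19 between SAM and tassel (1.18%) and 15 between SAM and ear (5.46%). It was past the threshold for 32 members in at least 1 of these tests, a share that was not counted over all genes. Of the 104 members tested in some tissue, 46 passed in none (44.2%, against 77.2% of all genes tested in some tissue), and 5 were tested in no tissue.

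**Figure D5:**
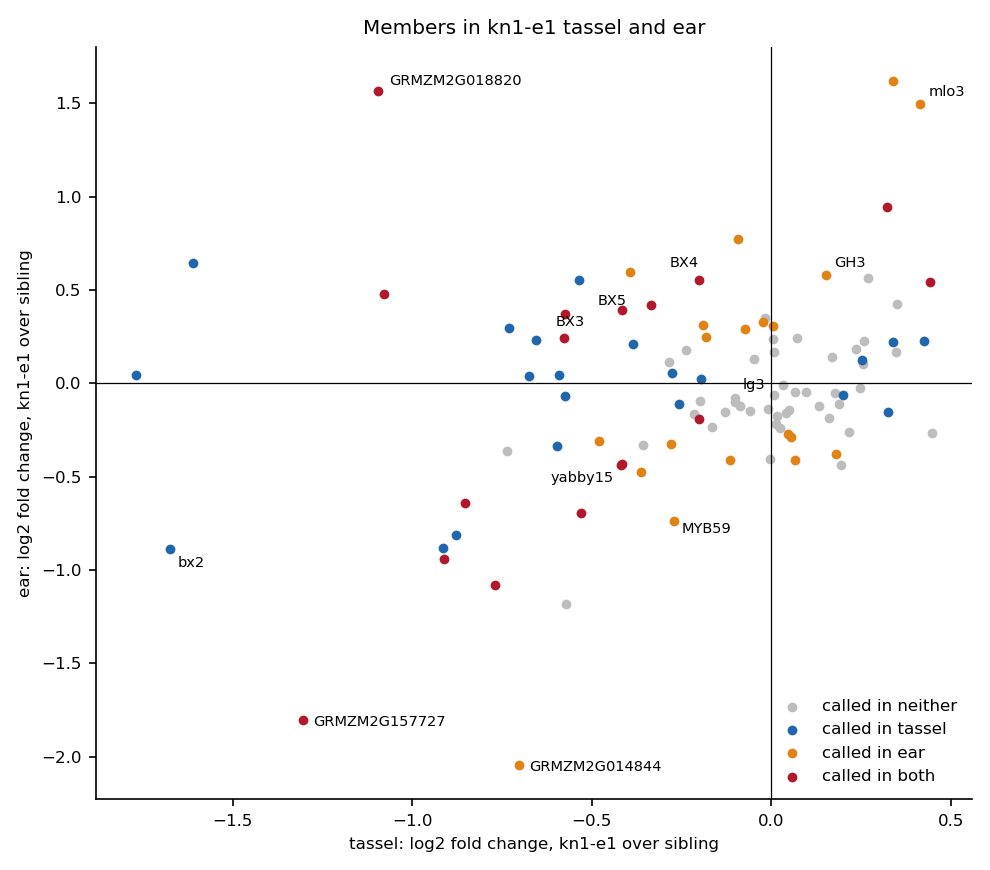
Log2 fold change of kn1-e1 over sibling in tassel (horizontal) and ear (vertical) for the members tested in both, coloured by the tissue in which edgeR's adjusted p was under 0.05. The red dots at upper left are the 7 genes lower in kn1-e1 tassel and higher in kn1-e1 ear, and GRMZM2G157727 is at lower left.

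Of the regulators described, lg3, GIF1, GRF11, GRF12 and GRF14 passed in no kn1-e1 tissue, whereas yabby15, HB127, BIF4, MYB59 and GLK44 passed in at least 1. For lg3 the log2 fold changes in kn1-e1 were -0.10 ± 0.06 in tassel, -0.08 ± 0.06 in ear and 0.17 ± 0.12 in SAM (edgeR adjusted p = 0.333, 0.443 and 0.954), and its libraries of both genotypes overlapped in every tissue. For GIF1 they were 0.07 ± 0.04, -0.05 ± 0.06 and -0.07 ± 0.14. Without kn1-e1 ear library 2, GIF1, GRF12 and GRF14 passed as lower in ear (edgeR adjusted p = 0.0289, 0.00732 and 0.0434), and without sibling SAM library 2, GRF12 and GRF14 passed as lower in SAM (0.0181 and 0.00182). Among the 17 tested GRF and GIF genes 1 was higher and 1 lower in kn1-e1 tassel, where 2.35% and 5.55% of all genes were. In ear 2 were lower, against 10.4% of all genes, and in SAM none passed, against 0.164%, so these counts lay near the shares over all genes. These values do not show that the genes were unaffected.

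The gene yabby15 did pass. Its level fell in kn1-e1 tassels, to 35.1, 31.6 and 32.7 CPM against 45.8, 43.8 and 42.0 CPM in siblings (-0.42 ± 0.06, edgeR adjusted p = 0.000635), and in kn1-e1 ears, at 76.9 and 77.3 CPM against 104 and 97.5 CPM (-0.44 ± 0.06, adjusted p = 0.000229). In kn1-e1 SAM it had 130 and 125 CPM against 119 and 120 CPM (0.11 ± 0.11, adjusted p = 0.958). The SAM minus ear difference was 0.57 ± 0.09 (edgeR adjusted p = 0.00284). Of the YABBY genes tested, 4 of 6 were lower in kn1-e1 tassel (5.55% of all genes), 7 of 7 were lower in ear (10.4%) and 0 of 8 passed in SAM (0.164%), with none higher in any tissue.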

How the data were processed

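Poly(A) RNA-seq libraries (TruSeq, a kit that does not mark strand) were deposited by the authors as raw counts per gene, 1 column per library; all 20 columns were matched to samples by name. The submitters' processing notes name CASAVA 1.8, TopHat 1.2.0, HTSeq and DESeq 1.4.1, and the genome build is not given in the sources used here. Overlapping and near-identical genes may share reads. CPM were counts over column totals. The kn1-e1 tests used edgeR 4.0.16 (quasi-likelihood test after TMM, genes kept by filterByExpr at 10 counts and 15 in total, adjusted p by Benjamini-Hochberg under 0.05), 1 fit per tissue, and 1 fit of all 14 libraries for differences between tissues; DESeq2 1.42.0 was an alternative. Scripts were tested on simulated data. Gene names and order came from RefSeq (assembly Zm-B73-REFERENCE-NAM-5.0), which held 18775 of the gene IDs and 83 of the members. The members and lists were chosen with earlier results of these data known. Genes were named for a list or name, the largest folds and levels, the smallest p per tissue and direction, calls in several tissues, nearness to a limit, and the extremes of the heterozygous share. The labels state no pairing of kn1-e1 and sibling libraries, and the main fits used none. Promoter and protein sequences were not used here.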

Additional observations from a re-analysis of the deposited data

Results flagged for a closer look

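Each of the following members had a kn1-e1 effect that differed between tissues by edgeR's test of the difference itself (adjusted p under 0.05 by Benjamini-Hochberg). Of the 53 named members, 23 had such a difference. Some of the 53 were named for their kn1-e1 results in these same tissues, which can raise that share. Of the 104 members tested, 32 had a difference in at least 1 pair. Over all genes, 5.22% passed for ear minus tassel, 1.18% for SAM minus tassel and 5.46% for SAM minus ear. For each of the 23, the pair of tissues with the smallest p is given as a difference of log2 fold changes, kn1-e1 over sibling. No explanation was tested.

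Ear minus tassel, the effect was higher in ear for GRMZM2G018820 (2.65), GRMZM2G053720 (1.799), GRMZM2G088689 (1.54), GRMZM2G050412 (0.93), PP2C19 (0.87), GRMZM2G138176 (0.85), GRMZM2G163406 (0.79), BX4 (0.74) and BX5 (0.74). A lower effect in ear was seen for GRMZM5G867518 (-0.49).

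SAM minus tassel, the effect was higher in SAM for bx2 (2.20), GRMZM2G127350 (1.499), BX3 (1.25), GRMZM2G014844 (1.18), GRMZM2G112210 (1.01) and GRMZM2G136453 (0.95). A lower effect in SAM was seen for GRMZM2G157727 (-1.17), which was lower in kn1-e1 than in siblings in all 3 tissues.

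SAM minus ear, the effect was higher in SAM for GRMZM2G022934 (1.32), MYB59 (0.78) and yabby15 (0.57). Lower in SAM were the effects for GRMZM2G431504 (-1.73), mlo3 (-1.59) and GRMZM2G086474 (-0.52).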

How the results depend on the processing

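The number of members moved from 109 to 56 at a 2-fold limit; it was 125 with TMM scaling or a pseudocount of 0.1, 82 at 5 CPM, and 124 to 206 with 1 leaf library left out (206 without wild-type library 2). A leaf library left out loosens the ordering, which by itself can only add members. The median heterozygous share was 36.5% with TMM scaling and 29.1% to 41.9% with 1 library left out. With 1 tassel library left out, members higher in kn1-e1 numbered 2 to 8 and lower 25 to 37; in ear 11 to 24 and 9 to 27; in SAM 0 to 7 and 1 to 9, the last without sibling SAM library 2. Library totals in place of TMM gave 11 higher in tassel, and DESeq2 gave 8 lower in ear and 2 higher in SAM. The single fit of 14 libraries gave 2 higher in SAM. Without a filter on low counts, 3 were higher and 2 lower in SAM, and differences between tissues were called for 32 (ear minus tassel), 32 (SAM minus tassel) and 23 (SAM minus ear) members. The causes were not tested. Of 147 log2 fold changes of named genes, calls lost and gained numbered 14 and 1 with DESeq2, 12 and 3 in the single fit, 3 and 3 with library totals, 0 and 9 without a filter, and 0 and 8 with replicate number as a block. No named gene that passed in the main fit or in the alternative had opposite directions in them. Changes of sign in genes that passed in neither fit were not counted.

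With replicate number as a block there were 8 higher and 35 lower in tassel, 21 and 24 in ear, and 2 and 1 in SAM. Deviations of same-numbered libraries had correlations of 0.0942, 0.108 and -0.000894 in tassel, -0.0184 in ear and -0.237 in SAM. In tassel, those of unlike numbers were -0.104 to 0.0283. With 2 libraries per group in ear and SAM, like and unlike numbers give mirror values, so these cannot decide whether libraries were paired. The labels state no pairing. The crossed pairing in SAM, added after seeing the data, gave 3 higher and 3 lower. Scaling all 20 libraries by TMM, also added after seeing the data, left 84, 78 and 77 members above wild-type leaf in tassel, ear and SAM, against 43.0%, 44.5% and 41.3% of all genes. With 16.1 to 20.7 reads per CPM, members near 1 CPM rest on few reads.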

Other observations

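Some members differed sharply among the tassel, ear and SAM of siblings, although all had the same order in leaf. GRMZM2G136453 had 414, 438 and 407 CPM in sibling tassels and 247 and 258 CPM in sibling SAM, but 5.31 and 5.97 CPM in sibling ears. GRMZM2G034471 was the reverse case, with 35.4 and 33.0 CPM in sibling ears, against 3.51, 2.32 and 2.95 CPM in sibling tassels and 3.01 and 3.73 CPM in sibling SAM. The gene mlo3 stood at 27.7 and 28.1 CPM in sibling SAM and under 1 CPM in every sibling tassel library. MYB59 had 46.8 and 43.2 CPM in sibling ears and 4.21, 5.28 and 4.37 CPM in sibling tassels. Highest mean over wild-type leaf, sibling tassel, ear and SAM was in tassel for 44 members (40.4%, against 20.4% of all genes), SAM for 34 (31.2%, against 30.2%), ear for 19 (17.4%, against 16.6%) and leaf for 12 (11%, against 32.8%), so SAM and ear lay near the share over all genes.

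The genes with the largest share of the homozygous rise in heterozygotes were GRMZM2G043242 (81.0%) and GRMZM2G377553 (80.4%). GRMZM2G043242 had 7.95 and 7.66 CPM in wild-type leaf, 20.8 and 18.5 CPM in heterozygotes and 23.8 and 21.1 CPM in homozygotes. It was lower in kn1-e1 tassel (-0.20 ± 0.05, SE, edgeR adjusted p = 0.0224) and ear (-0.19 ± 0.06, adjusted p = 0.0422). Both calls were lost in the single fit of 14 libraries, the tassel call without kn1-e1 tassel library 3 or sibling tassel library 1 or 3, and the ear call with DESeq2, with library totals alone and without kn1-e1 ear library 1 or either sibling ear library (adjusted p of up to 0.102 and 0.271). It was also among the members closest to kn1 across the 20 libraries. GRMZM2G086474 and GRMZM2G086553, adjacent among the placed genes of the reference order, were both members.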
